A study of Mus musculus with 6 samples.

Results

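The surface ligands through which tumor cells and leukocytes hold back or stimulate T cells, natural killer cells and macrophages were examined in liver tumors of mice. The set is 10 genes of the 34745 in the table of gene counts: Cd274, Pdcd1lg2, Cd80, Cd86, Icosl, Cd276, Lgals9, Pvr, Nectin2 and Cd47. They were chosen by name, 9 by their current symbol and Nectin2 by its Ensembl identifier ENSMUSG00000062300, since the table lists it under the older symbol Pvrl2. RNA-seq was done on whole liver tumors of 26-week-old male mice, 3 tumors of Prmt3 f/f mice (labelled WT, replicates 7, 66 and 71) and 3 tumors of Prmt3 LKO mice (labelled Prmt3-KO, replicates 92, 93 and 94). Both groups carry the floxed Prmt3 alleles, and Prmt3 LKO mice also carry Alb-Cre, which acts in hepatocytes. Leukocytes of the tumor keep an intact Prmt3. All mice had received diethylnitrosamine (DEN, 25 mg/kg) at 2 weeks of age and 10% CCl4 at 0.5 ml/kg from 6 weeks. Whether each tumor came from a separate mouse is not stated, so the p-values measure the spread between these tumors.

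T cells are switched on by a pair of signals, the antigen receptor and a co-stimulatory receptor such as CD28 or ICOS, and are held back by checkpoint receptors such as PD-1, CTLA-4, TIM-3 and TIGIT. The ligands of these receptors sit on antigen-presenting cells (CD80, CD86, ICOSL), on both tumor cells and myeloid cells (PD-L1, encoded by Cd274), or widely on epithelial cells (PVR, Nectin-2, CD47). In liver, macrophages, sinusoidal endothelial cells and hepatocytes can all carry PD-L1, and its gene is a known target of interferon-gamma through factors such as IRF1.

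Upstream sequences are shown for 3 ligands whose estimates went in different directions between the genotypes, Cd274, Cd80 and Lgals9, since IRF factors are known regulators of Cd274. The 250 bases before the start of each gene come from RefSeq (GRCm38.p6), in which 8 of the 10 ligands were matched, and run 5′ to 3′ on the strand of the gene. Capitals mark matches on either strand to the core of the IRF motif, AANNGAAA.
Cd274, chr19:29367188-29367437, plus strand: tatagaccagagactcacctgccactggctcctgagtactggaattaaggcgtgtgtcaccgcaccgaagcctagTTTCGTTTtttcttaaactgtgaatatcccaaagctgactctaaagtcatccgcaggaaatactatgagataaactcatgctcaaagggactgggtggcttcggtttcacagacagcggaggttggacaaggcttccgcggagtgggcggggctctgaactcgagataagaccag
Cd80, chr16:38458683-38458932, plus strand: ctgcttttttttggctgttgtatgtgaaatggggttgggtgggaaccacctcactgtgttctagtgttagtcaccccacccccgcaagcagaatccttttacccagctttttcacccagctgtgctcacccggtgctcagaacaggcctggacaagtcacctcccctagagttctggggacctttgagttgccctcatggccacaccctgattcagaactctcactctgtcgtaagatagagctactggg
Lgals9, chr11:78984925-78985174, minus strand: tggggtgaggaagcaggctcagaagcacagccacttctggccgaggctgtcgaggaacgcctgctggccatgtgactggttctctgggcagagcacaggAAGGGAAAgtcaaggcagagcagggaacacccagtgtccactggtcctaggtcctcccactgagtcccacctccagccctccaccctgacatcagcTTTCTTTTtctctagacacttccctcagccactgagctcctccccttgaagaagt
Cd274 holds 1 match, 175 bases before the start, Lgals9 holds 2, and Cd80 holds 0. Of the 8 ligands with an entry, 3 hold an IRF core (Cd274, Lgals9 and Pdcd1lg2), against 21.3% of all 32851 promoters in the table. The TATA box TATAAA was found in 0 of the 8, against 12.4% of all promoters. These matches describe the letters of the windows and say nothing of whether a factor was bound.

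The tumors held 18440244 to 27976598 counts each, and a count of 0 would allow up to 0.107 to 0.163 counts per 1000000 counts of the library (CPM), which covers counting error only. Prmt3 was at 6.60, 8.49 and 10.2 CPM in the f/f tumors and at 2.80, 2.03 and 3.82 CPM in the LKO tumors, so every library followed its label. Across the 13892 genes tested with edgeR's quasi-likelihood test, 0 passed an adjusted p of 0.05 with a fold change of 2. At an unadjusted p under 0.05, 607 were lower and 305 higher in LKO tumors. DESeq2 called 43 genes lower and 9 higher, with no ligand among them. Ptprc, the pan-leukocyte gene encoding CD45, was at 41.0, 39.6 and 39.7 CPM in f/f tumors and at 19.1, 23.7 and 25.7 CPM in LKO tumors. The 8 genes of the leukocyte list all had an unadjusted p under 0.05 with lower levels in LKO tumors, the summed CPM of the list being 205.8 to 274 in f/f and 114.2 to 159.1 in LKO tumors. Summed CPM of the myeloid, dendritic, B cell and T cell lists also lay lower in LKO tumors without overlap, while those of hepatocyte, endothelial, stellate and cholangiocyte genes overlapped. Single members overlapped more often. Lower without overlap were 4 of 10 myeloid, 3 of 7 dendritic, 1 of 5 B cell and 4 of 6 T cell genes. The share over all genes tested was 6.6%. Some of these members rest on few counts, with 3 counts in an LKO tumor for Xcr1 (dendritic), Ms4a1 (the B cell gene) and Cd3e (T cell). The myeloid sum moved largely with Lyz2 (160.1 to 674.8 CPM in f/f and 118.2 to 162.5 CPM in LKO tumors). In whole tumors, fewer leukocytes and less RNA per leukocyte cannot be told apart. The defining hepatocyte gene Alb took 1.08e+05 to 1.65e+05 CPM in every tumor. Spp1, the osteopontin gene, stood apart in f/f tumor 7 at 4075 CPM against 184.6 to 978.1 CPM in the other tumors, and made up nearly the whole cholangiocyte sum. Of the other members of that list, Krt7 was also highest in f/f tumor 7 (3.185 CPM, with 3.079 CPM in f/f tumor 66). Krt19, Epcam and Sox9 were highest in other tumors.

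None of the 9 ligands that could be tested passed the limits, which 0% of all genes passed. Cd80 reached the filter in 3 f/f tumors and 1 LKO tumor, so the filter itself favoured a difference, and it is left out of the counts that follow. Of the other 8, 2 had an unadjusted p under 0.05 with lower levels in LKO tumors (Cd86 and Cd274), where 4.37% of all genes did, and 0 had one with higher levels, where 2.2% did. In 1 of the 8 (Cd86) every LKO tumor lay below every f/f tumor, which held for 6.6% of all genes. In 1 (Lgals9) every LKO tumor lay above, which held for 5.56%. The median log2 fold change of the 8 ligands was -0.17, and that of all genes tested was 0.00. With Cd80 the count at an unadjusted p was 3 of 9, and it rests on single tumors, being 0 without LKO tumor 92 and 1 without f/f tumor 7 or f/f tumor 71. The plot of levels by tumor shows each ligand on its own scale.

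**Figure D1:**
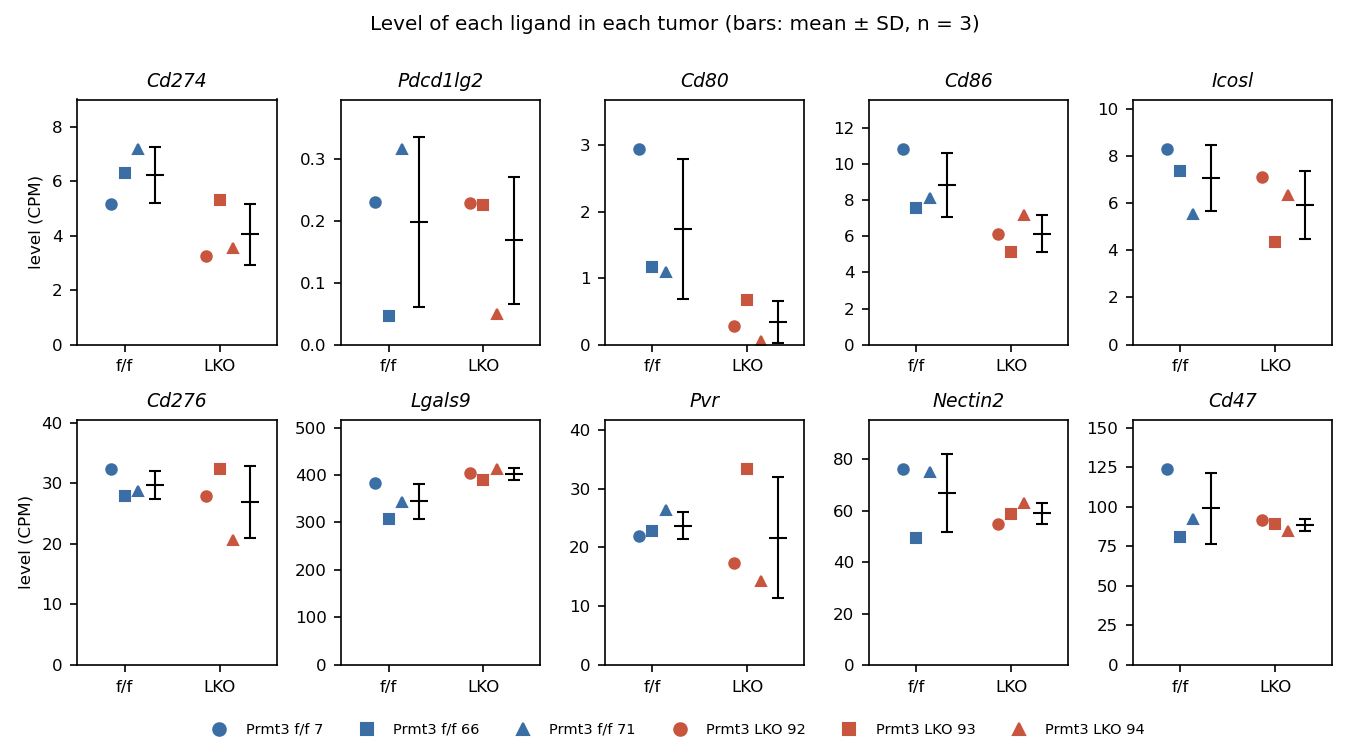
Level of each of the 10 ligands in CPM (vertical axis, from 0, a scale for each gene) in the 3 Prmt3 f/f tumors (blue) and the 3 Prmt3 LKO tumors (red), with a marker shape for each tumor and bars for mean ± SD. Cd80 and Cd86 did not overlap between the genotypes and lay lower in LKO tumors, Lgals9 did not overlap and lay higher, and the other ligands overlapped.

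Cd274 encodes PD-L1, the main ligand of PD-1 and the ligand on which the study centres. It was at 5.17, 6.30 and 7.21 CPM in f/f tumors 7, 66 and 71, and at 3.26, 5.32 and 3.57 CPM in LKO tumors 92, 93 and 94. LKO tumors 92 and 94 lay below every f/f tumor, and LKO tumor 93 lay just above f/f tumor 7, so the groups overlapped. The means were 6.22 ± 1.02 and 4.05 ± 1.11 CPM (SD, n = 3 each), a log2 fold change of -0.62 ± 0.26 (SE). Its 95% interval ran from -1.22 to -0.015, and the adjusted p was 0.75 by edgeR's quasi-likelihood test (Benjamini-Hochberg over all genes). Permuting the 6 tumors exactly, two-sided, gave p = 0.2, where the smallest p possible is 0.1. At 57 to 205 counts per tumor, the spread between tumors of a genotype (SD 0.31 on the log2 scale) was larger than that expected from counting (0.15).

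Pdcd1lg2 encodes PD-L2, the other ligand of PD-1, and its gene lies next to Cd274 on chromosome 19. It had 5, 1 and 9 counts in f/f tumors and 4, 5 and 1 counts in LKO tumors, and did not pass the filter on low counts. A difference in Pdcd1lg2 was not detectable at this depth (exact permutation p = 0.8).

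The B7 ligands CD80 and CD86 bind both CD28, which stimulates, and CTLA-4, which inhibits. Cd80 was at 2.95, 1.17 and 1.09 CPM in f/f tumors and at 0.286, 0.677 and 0.0503 CPM in LKO tumors, from 64, 25 and 31 counts and from 5, 15 and 1 counts. Every LKO tumor lay below every f/f tumor, with f/f tumor 7 alone far above the rest. The log2 fold change was -2.31 ± 0.77 (SE), with a 95% interval from -4.11 to -0.52 and an adjusted p of 0.648 by edgeR's quasi-likelihood test. Its estimate ranged from -3.36 to -1.71 when a tumor was left out.

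Cd86 was more abundant and steadier, at 10.9, 7.56 and 8.12 CPM in f/f tumors and at 6.12, 5.14 and 7.19 CPM in LKO tumors. The groups did not overlap, though f/f tumor 66 and LKO tumor 94 lay close together. The log2 fold change was -0.52 ± 0.22 (SE; 95% interval -1.03 to -0.014), with an adjusted p of 0.75 by edgeR's quasi-likelihood test and p = 0.1 by the exact permutation test, the smallest it can give. Icosl, the ligand of the co-stimulatory receptor ICOS, was at 8.31, 7.37 and 5.56 CPM in f/f tumors and at 7.09, 4.33 and 6.33 CPM in LKO tumors. Its ranges overlapped, and its log2 fold change of -0.26 had a 95% interval from -0.85 to 0.33.

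Lgals9 encodes galectin-9, a secreted lectin that binds TIM-3, and was the only ligand with an estimate above 0. It was at 382.5, 307.5 and 343.2 CPM in f/f tumors and at 404.3, 389 and 413.1 CPM in LKO tumors. Every LKO tumor lay above every f/f tumor, but LKO tumor 93 exceeded f/f tumor 7 by little. The log2 fold change was 0.22 ± 0.16 (SE; 95% interval -0.15 to 0.60), with an adjusted p of 0.897 by edgeR's quasi-likelihood test and an exact permutation p of 0.1. The LKO tumors were close to each other, the highest exceeding the lowest 1.06-fold, against 1.24-fold among the f/f tumors.

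Pvr (CD155) and Nectin2 (CD112) are adhesion proteins of epithelial cells that bind the activating receptor CD226 and the inhibitory receptor TIGIT. Pvr was at 22.0, 22.7 and 26.3 CPM in f/f tumors and at 17.4, 33.4 and 14.2 CPM in LKO tumors. The LKO tumors held both the highest value and the lowest values of the 6, and LKO tumor 93 was 2.35-fold above LKO tumor 94. The fitted difference was -0.13 (95% interval -0.84 to 0.59) and turned to 0.011 without LKO tumor 92 and to 0.104 without LKO tumor 94. Nectin2 was at 76.3, 49.4 and 74.9 CPM in f/f tumors and at 54.9, 58.9 and 63.1 CPM in LKO tumors, the LKO values lying inside the f/f range. Its log2 fold change was -0.18, with a 95% interval from -0.63 to 0.26.

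Cd276 encodes B7-H3, a B7 relative carried by many solid tumors, whose receptor is not settled. It was at 32.4, 27.99 and 28.8 CPM in f/f tumors and at 27.9, 32.4 and 20.6 CPM in LKO tumors. Only LKO tumor 94 was below the f/f range by more than a little, and without it the log2 fold change of -0.14 became 0.022. Cd47, which signals through SIRP-alpha on macrophages to prevent engulfment, was at 124, 80.7 and 92.5 CPM in f/f tumors and at 91.6, 89.2 and 84.4 CPM in LKO tumors. Here f/f tumor 7 was the high one, and without it the log2 fold change of -0.16 became 0.021. The 95% intervals of Cd276 (-0.58 to 0.29) and Cd47 (-0.59 to 0.26) do not reach a halving or a doubling.

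**Figure D2:**
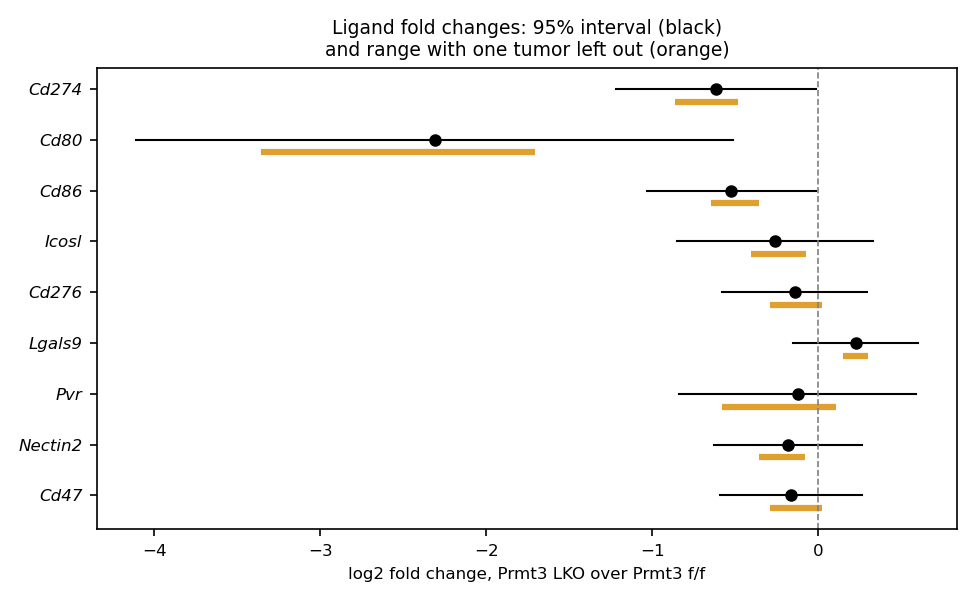
Log2 fold change of the 9 tested ligands, LKO over f/f (horizontal axis), with the 95% interval (black) and the range of the estimate with 1 tumor left out at a time (orange). The intervals of Cd274, Cd80 and Cd86 end just below or below 0 and those of the other 6 cross it, while the orange ranges of Cd276, Pvr and Cd47 also cross 0.

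Levels of different genes were compared per length, as FPKM. Over the 6 tumors Lgals9 stood first at 114.2 ± 12.7 FPKM (SD, n = 6), followed by Nectin2 at 18.3 ± 3.57 and Cd47 at 16.7 ± 3.11. Then came Cd276 (5.04), Pvr (3.51), Icosl (2.35), Cd86 (1.61), Cd274 (1.42), Cd80 (0.619) and Pdcd1lg2 (0.112 FPKM). The lowest Lgals9 value (91.9) lay above the highest Nectin2 value (22.8), and the lowest Cd47 value (13.98) lay above the highest Cd276 value (5.99 FPKM). All other neighbours in this order overlapped in their ranges.

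**Figure D3:**
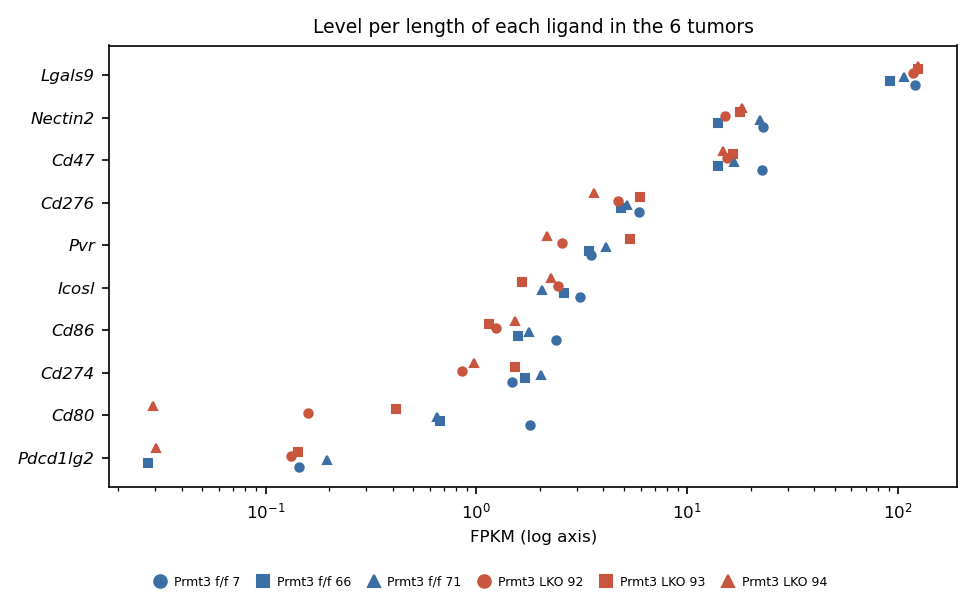
FPKM of each ligand (log axis) in the 6 tumors, ordered by the mean, with the marker and color of each tumor as in the legend. Lgals9 is apart at 91.9 to 124.7 FPKM, and Nectin2 and Cd47 form the next step above the other 7 ligands.

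The ligands were then set against Ptprc, as a measure of leukocyte RNA, and against Alb, as a measure of hepatocyte RNA. Because Ptprc itself did not overlap between the genotypes, no correlation with it over the 6 tumors is given. Ligand counts per 1000 Ptprc counts were compared in its place. The log2 CPM of Ptprc differed by -0.82 between LKO and f/f tumors. On this scale that raises the difference of every ligand by about this amount. The ratios use CPM without the prior count of 2. At 1 to 64 counts, the difference in the ratio of Cd80 is therefore not comparable with its fold change. Within the f/f tumors, where Ptprc varied only 1.03-fold, Cd274 varied 1.39-fold, Cd86 1.43-fold and Cd80 2.71-fold. Ptprc was the steadiest gene of the leukocyte list there. The others varied more, from Rac2 (22.9 to 28.8 CPM) to Cd52 (12.1 to 28.9 CPM). Whether the ligands followed leukocyte RNA among the f/f tumors was not tested.

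Relative to Ptprc, Cd274 was at 126.1, 159 and 181.7 in f/f tumors and at 170.7, 224.8 and 138.9 in LKO tumors. These ranges overlapped broadly, and the difference in log2 ratio was 0.18 (exact permutation p = 0.5). Its sign, opposite to that in CPM, follows from the lower Ptprc of the LKO tumors. Cd86 per 1000 Ptprc was at 264.6, 190.8 and 204.8 in f/f tumors and at 320.4, 217.1 and 279.8 in LKO tumors, again overlapping and with a difference of 0.30 (exact permutation p = 0.2). The non-overlap of Cd86 in CPM was not kept relative to Ptprc, where the same shift applies. Which cells the Cd274 and Cd86 RNA came from was not tested. Cd80 per 1000 Ptprc was at 72.1, 29.4 and 27.5 in f/f tumors and at 14.97, 28.6 and 1.96 in LKO tumors, with a log2 difference of -2.04 (exact permutation p = 0.2). Cd80 thus kept its direction, but the groups overlapped through LKO tumor 93, and the difference ranged from -2.84 to -0.91 with 1 tumor left out, being smallest in size without LKO tumor 94.

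The other tested ligands carry the same shift from Ptprc. Lgals9 per 1000 Ptprc was at 9330, 7764 and 8653 in f/f tumors and at 2.118e+04, 1.643e+04 and 1.609e+04 in LKO tumors, a log2 difference of 1.05. Lgals9, Cd47 (0.68), Nectin2 (0.67) and Cd276 (0.66) were each higher per Ptprc in every LKO tumor than in any f/f tumor, with exact permutation p = 0.1, the smallest it can give, for each. For Cd276 the gap was narrow, from 790.5 in f/f tumor 7 to 800.4 in LKO tumor 94. Pvr (0.60) and Icosl (0.55) overlapped. Since Ptprc was lower in every LKO tumor, a ligand whose CPM did not move with genotype is higher on this scale by construction. These differences and their p-values are therefore no separate result about the ligands. With the myeloid list in place of Ptprc, Lgals9 (1.09) and Cd47 (0.72) again did not overlap, nor did Icosl (0.59), while Cd276 (0.70) and Nectin2 (0.70) overlapped.

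Relative to Alb, 9 of the 10 ligands overlapped between genotypes. Cd80 did not, at 22.5, 7.08 and 10.1 per 1000000 Alb counts in f/f tumors and at 2.21, 5.20 and 0.422 in LKO tumors. Its exact permutation p was 0.1, the smallest possible. The LKO values rest on 5, 15 and 1 counts, and Cd80 reached the filter in only 1 LKO tumor. Cd274 was at 39.4, 38.2 and 66.6 per 1000000 Alb counts in f/f tumors and at 25.1, 40.9 and 29.9 in LKO tumors (log2 difference -0.57, exact permutation p = 0.3). Its sign matched that in CPM, the estimate for Alb itself being small (log2 fold change -0.093 ± 0.376, SE).

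**Figure D4:**
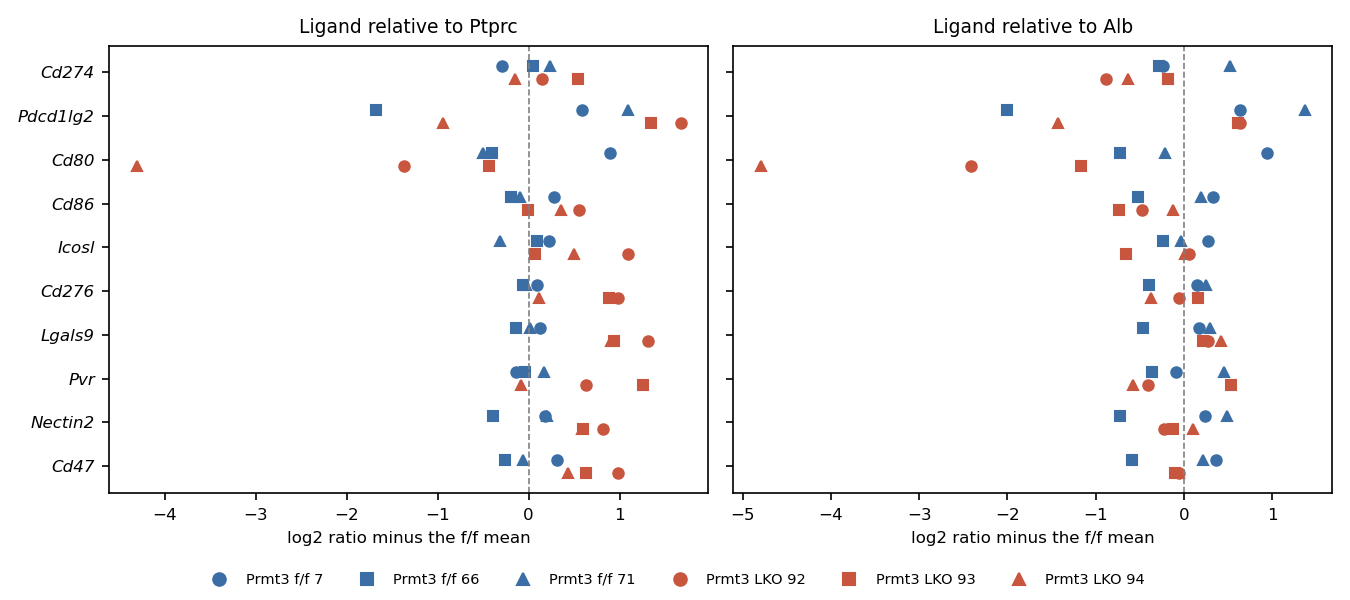
Log2 ratio of each ligand to Ptprc (left) and to Alb (right) in each tumor, with the mean of the f/f tumors set to 0, f/f tumors in blue and LKO tumors in red. Cd274 and Cd86 overlap between the genotypes on both scales, and Lgals9, Cd47, Nectin2 and Cd276 lie higher in every LKO tumor relative to Ptprc only. The lower Ptprc of the LKO tumors raises every ligand on the left.

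Across the 6 tumors no relation of a tested ligand to Alb passed the test. Of the 9 tested, 0 had an unadjusted permutation p under 0.05 in either direction, where 1.26% of all genes had one with a positive and 1.46% with a negative correlation. Nectin2 came closest, with Pearson's r = -0.73 (exact permutation p = 0.0889, adjusted over all genes 1) and Spearman's rho = -0.37 (exact permutation p = 0.497, adjusted 0.941). Without f/f tumors 66 and 71, which were farthest from the median of Alb, r was 0.094, over the narrower range of Alb that remained. With single tumors left out r was between -0.936 and -0.439. Cd274 had r = 0.08 with Alb (exact permutation p = 0.908) and rho = 0.03 (exact permutation p = 1).

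With Cd274 itself as the reference, 0 of the 8 other tested ligands had an unadjusted permutation p under 0.05, where 2.25% of all genes had one with a positive and 1.45% with a negative correlation. Lgals9 ran most against Cd274 (r = -0.80, exact permutation p = 0.0625, adjusted p = 1; rho = -0.83, exact permutation p = 0.0583), and r was -0.70 without LKO tumors 92 and 94. Pvr had r = 0.74 and rho = 0.77 with Cd274 (exact permutation p = 0.0903 and 0.103), and Cd80 r = 0.71 and rho = 0.54 (exact permutation p = 0.113 and 0.297), all adjusted to 0.968 or 1. Their r became -0.11 and -0.30 without these tumors. The genes whose levels were most like that of Cd274 over the 6 tumors were Cxcl9 (r = 0.991), Smarca5 (r = 0.983) and Dus3l (r = 0.979), each with an adjusted permutation p of 1. They were taken as the highest of the tested genes with a mean of at least 1 CPM. For every ligand, predicted genes (names of Gm with digits, or ending in Rik) were passed over. Cxcl9 encodes a chemokine known to be induced by interferon-gamma, and had a log2 fold change of -1.52 ± 0.44 (SE). For Cd80 the nearest genes were Pcf11, Nfatc1 and Nfkbie (r = 0.997, 0.994 and 0.993), and for Cd86 S100a13, Itga2b and Car13 (0.992, 0.992 and 0.983). For Lgals9 they were Scd3, Wdr3 and Uqcrq (0.996, 0.987 and 0.986). The adjusted permutation p was 0.652 for each gene near Cd80, 0.701 near Cd86 and 0.787 near Lgals9. Cd80, Cd86 and Lgals9 did not overlap between the genotypes. Their correlations over the 6 tumors, also those with Cd274, therefore carry the genotype difference as well.

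**Figure D5:**
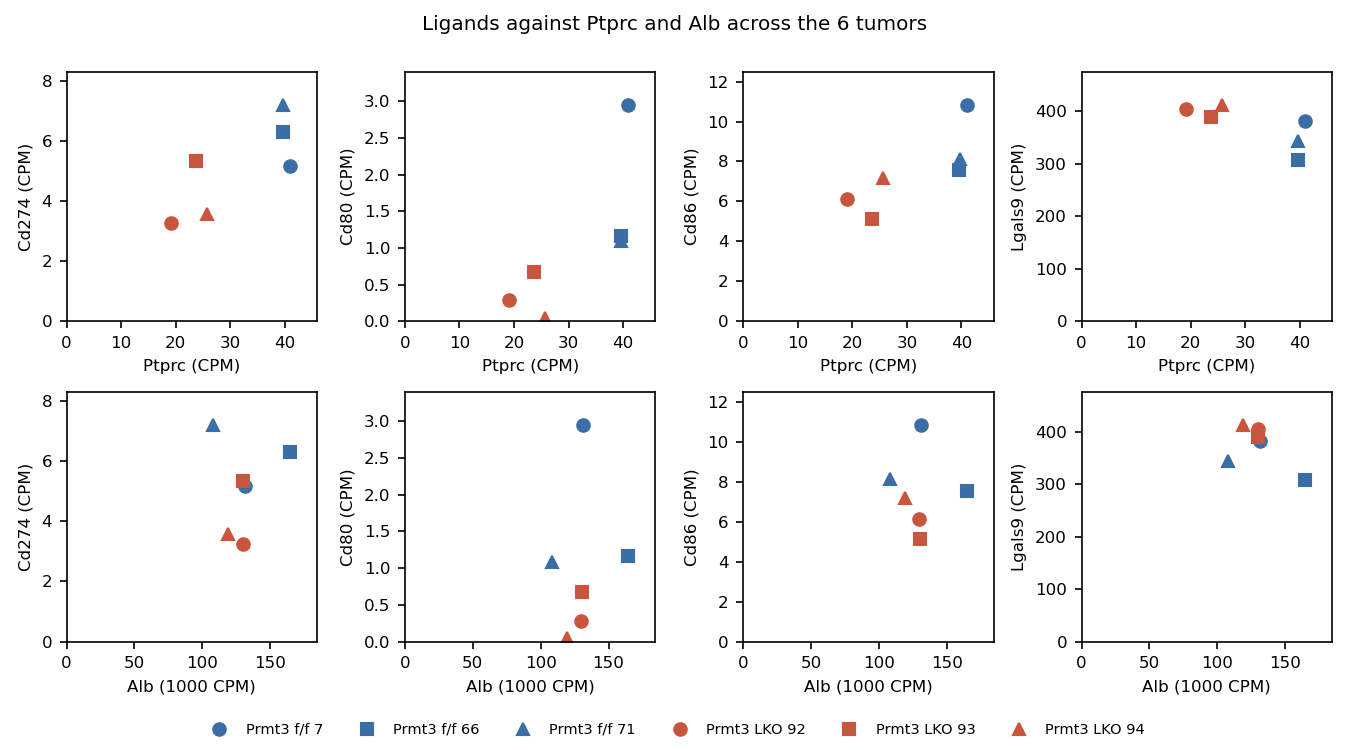
CPM of Cd274, Cd80, Cd86 and Lgals9 (vertical axes) against CPM of Ptprc (upper row) and CPM of Alb in units of 1000 (lower row) in the 6 tumors. Ptprc parts the f/f tumors (39.6 to 41.0 CPM) from the LKO tumors (19.1 to 25.7 CPM), and Alb does not.

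Of the 9 receptors found, Sirpa, which myeloid cells carry, was the abundant one at 50.05 ± 14.98 CPM in f/f and 37.3 ± 20.1 CPM in LKO tumors (SD, n = 3 each), and the others, mostly genes of T cells and natural killer cells, had means of at most 2.20 CPM. None passed the limits. Only Cd28, Icos, Havcr2 and Sirpa reached the filter in every tumor. Of these 4, 0 had an unadjusted p under 0.05 (4.37% of all genes were lower at that p) and 2 (Cd28 and Havcr2) lay lower in every LKO tumor (6.6% of all genes). In Cd28 and Havcr2 the log2 SD expected from counting (0.33 and 0.23) exceeded that between tumors of a genotype (0.28 and 0.17). Pdcd1, Ctla4, Tigit, Cd96 and Cd226 reached it in all f/f tumors but only in 1 or 2 LKO tumors, so their lower levels are given as values. Pvrig was not analysed here. Pdcd1, which encodes PD-1, was at 2.31, 2.33 and 1.19 CPM in f/f tumors and at 0.114, 1.26 and 0.402 CPM in LKO tumors, with a log2 fold change of -1.66 ± 0.71 (SE; adjusted p = 0.756 by edgeR's quasi-likelihood test). LKO tumor 93, the LKO tumor with the most Cd274, also had the most Pdcd1 of the LKO tumors, and overlapped f/f tumor 71. Tigit was at 1.52, 1.35 and 1.09 CPM in f/f tumors and at 0.400, 0.947 and 0.452 CPM in LKO tumors without overlap (-1.11). Ctla4 (-1.36), Cd28 (-0.56) and Havcr2, the gene of TIM-3 (-0.39), did not overlap either, while Icos (-0.02), Cd226 (-0.19), Cd96 (-1.33) and Sirpa (-0.42) did. The T cell list summed to 20.99 to 27.5 CPM in f/f tumors and to 4.74 to 15.5 CPM in LKO tumors, and its part in the receptor levels was not tested.

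Further ligands of the same families gave no call. Of 16 genes, 11 could be tested, 10 had a fold change below 0, and 0 had an unadjusted p under 0.05, with a median of -0.28. Of all 13892 genes tested, 6937 were below 0, with a median of 0.00. At that p, 4.37% of all genes were lower and 2.2% higher. The smallest p-values were those of Tnfrsf14 (HVEM, -0.54 ± 0.27), Cd48 (-0.53 ± 0.28) and Thbs1 (-0.59 ± 0.41, all SE). Among 14 tested genes known to act on Cd274 transcription or on the stability of PD-L1, 8 were below 0 and 0 had an unadjusted p under 0.05, with a median of -0.10. In the interferon pathway, Irf2 (-0.40 ± 0.19) and Jak2 (-0.30 ± 0.15) had the smallest p-values of the genes reported here. In each, every LKO tumor lay below every f/f tumor, which held for 6.6% of all genes. Jak2 was at 32.6, 28.8 and 32 CPM in f/f tumors and at 26.5, 27.7 and 21.6 CPM in LKO tumors, f/f tumor 66 and LKO tumor 93 being near each other. Ifng itself had 0 to 8 counts per tumor and could not be tested. Cmtm6, whose protein protects PD-L1 from degradation, had a log2 fold change of 0.11 (95% interval -0.23 to 0.45).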

How the data were processed

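RNA of 6 whole liver tumors was sequenced by the authors, who, per the labels and methods, aligned the reads to GRCm38 with HISAT2 2.0.4; bcl2fastq 2.19 and StringTie 1.3.0 are named in the submitters' processing notes. The deposited counts are whole reads per gene, not normalized. The deposited FPKM values are counts per gene length and per library total. The counting tool, its use of strand and the annotation release are not given in the sources used here. Genes on the opposite strand overlap Cd276, Pvr and Nectin2, but had 0 to 2 counts.

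From the counts, genes were filtered (filterByExpr, minimum count 10, total 15), scaled by TMM and fitted in edgeR 4.0.16 (R 4.3.3) for its quasi-likelihood test. The p-values were adjusted by Benjamini-Hochberg over 13892 genes. A call needed an adjusted p under 0.05 and a change of 2-fold or more either way. CPM use the TMM-scaled library size, and log2 CPM a prior count of 2, which the ratios leave out. Single values were compared by exact two-sided permutation tests over the tumors, and relations over all 720 pairings. Ptprc, planned as another reference for relations, fell into separate ranges by genotype, so ratios to it were used. Alternatives were DESeq2 1.42.0, limma 3.58.1, other filters and scalings, FPKM with pseudocounts of 1 and 0.1, and each tumor left out. The steps were tested on simulated data. The members, lists and rules for named genes (the ligands, their receptors, the 3 smallest p-values of each list and the 3 nearest genes) were chosen with earlier results of these data known. A gene that this rule names is not reported here.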

Additional observations from a re-analysis of the deposited data

How the results depend on the processing

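No ligand was called under any alternative. Over all genes, DESeq2 called 43 lower and 9 higher in LKO tumors, the exact test of edgeR 35 and 5, and the fit with no filter beyond 1 count 2 lower, where the quasi-likelihood test called 0. Leaving out a tumor also gave 0. Of 129 alternative fold changes of the ligands, 125 kept direction and side of the threshold. The 4 that changed sign came from leaving out a tumor, with ranges of -0.29 to 0.022 for Cd276, -0.58 to 0.104 for Pvr and -0.29 to 0.021 for Cd47. The cause was not tested. The number of ligands lower at an unadjusted p under 0.05 ranged from 0 to 3 with a tumor left out. That of receptors ranged from 0 to 3, being 1 without TMM. In the main fit 4.37% of all genes were lower at that p. These counts include Cd80, Pdcd1, Ctla4, Tigit, Cd96 and Cd226, for which the filter favoured a difference. They are therefore no result about the members.

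Correlations over 6 tumors changed sign often. With Alb, leaving out a tumor gave r from -0.488 to 0.73 for Cd274, -0.983 to 0.637 for Lgals9, -0.735 to 0.377 for Cd47, -0.172 to 0.126 for Cd86, -0.163 to 0.381 for Cd276 and -0.20 to 0.345 for Pvr. For Cd86 r was 0.006 without TMM and 0.007 on FPKM, and for Cd274 -0.117 on deviations from genotype means. With the hepatocyte list in place of Alb, an alternative chosen after seeing the data, r was -0.451 for Cd274, -0.674 for Cd80, -0.784 for Cd276 and -0.759 for Pvr, and 1 ligand had an unadjusted p under 0.05. Leaving out a tumor gave 0 to 1 such ligands for Alb and for Cd274. With Cd274, deviations gave r of -0.766 for Cd86, -0.035 for Nectin2 and -0.390 for Cd47, and 1 such ligand. Leaving out a tumor gave -0.132 to 0.268 for Cd47, -0.147 to 0.627 for Pdcd1lg2 and -0.098 to 0.709 for Nectin2. The ratio of Pdcd1lg2 to Ptprc ranged from -0.144 to 1.51 (log2). The planned relations to Ptprc over all tumors are not given, since Ptprc parted the genotypes. The myeloid list in place of Ptprc and the counts at an unadjusted p were also added after seeing the data.

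No paired analysis was possible because the genotypes share no replicate numbers. Counts of 1 to 9 limit Pdcd1lg2. For Cd80 the spread between tumors (SD 1.02, log2) exceeded that expected from counting (0.69), and 3 tumors a group limit every comparison.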
